A study of Homo sapiens with 2 samples.

Results

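The Wnt pathway was followed through 48 of its genes, comprising ligands, receptors, inhibitors, the beta-catenin destruction complex, TCF factors and target genes, in MDA-MB-231 cells with and without knockdown of KMO. These genes were chosen by name for their roles, and the role groups were set with earlier results of these data known. Probe sets that the platform annotation assigns to exactly 1 gene covered 44 of the 48, among 19775 genes named on the array, and the 44 genes had 123 of its 54675 probe sets. WNT3 and FZD8 appeared only on probe sets that also name another gene, 3 for each, and TCF7 and PORCN had no probe set of a single gene in the annotation used, so these 4 genes were not analysed here.

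MDA-MB-231 is an established human line of triple-negative breast cancer, a class that lacks the oestrogen and progesterone receptors and an amplified ERBB2. The siKMO cells were transfected for 48 h, with a lipid reagent, with siRNA against KMO, and the siControl cells with a control siRNA for the same time, in serum-containing medium. RNA of each condition was hybridised to 1 Affymetrix U133 Plus 2.0 array, so each group is 1 culture of 1 line, nothing below could be checked against replicates, and no test was made. The array names deposited beside the titles carry strings usual for short hairpins (shK421 and shLUC), while every other label says siRNA, and the construct was not settled. KMO encodes kynurenine 3-monooxygenase, a mitochondrial enzyme of tryptophan breakdown, and the title of the study asks whether it acts on pluripotency genes through beta-catenin.

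In the canonical Wnt pathway a secreted, lipid-modified Wnt protein binds a Frizzled receptor and an LRP coreceptor, and dishevelled then disables the destruction complex. Without a Wnt signal that complex, held together by axin and APC, lets casein kinase 1 and GSK3 phosphorylate beta-catenin, which is ubiquitinated and degraded. Stabilised beta-catenin enters the nucleus and activates targets with TCF and LEF factors, several of which are feedback inhibitors such as AXIN2, RNF43 and DKK1. R-spondins, through the LGR receptors, keep the ligases RNF43 and ZNRF3 from clearing Frizzled from the cell surface. In many cell types beta-catenin also sits at the membrane, bound to cadherins.

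Regulatory sequence is shown for 4 genes: LGR4, which had the largest difference of the measured Wnt genes, TCF7L2, which was lower with every probe set, and LEF1 and DKK1, a nuclear partner and a secreted inhibitor that are themselves targets of the pathway. Each sequence is the 250 bases before a transcription start in RefSeq (GRCh38.p14), written 5′ to 3′ on the strand of the gene. LGR4 is at chr11:27472791-27473040 (minus strand), TCF7L2 at chr10:113126383-113126632 (plus strand), LEF1 at chr4:108166302-108166551 (minus strand) and DKK1 at chr10:52314031-52314280 (plus strand). Capitals mark the TCF/LEF core word CTTTGNN, each N being A or T, which was searched on both strands. Of the 3 TCF7L2 starts listed, only 1 holds a word, and that start was chosen to be shown. For every gene the start with most words was shown, and at a tie the start of lowest coordinate. A window shown is therefore not necessarily at the main start of its gene.
LGR4: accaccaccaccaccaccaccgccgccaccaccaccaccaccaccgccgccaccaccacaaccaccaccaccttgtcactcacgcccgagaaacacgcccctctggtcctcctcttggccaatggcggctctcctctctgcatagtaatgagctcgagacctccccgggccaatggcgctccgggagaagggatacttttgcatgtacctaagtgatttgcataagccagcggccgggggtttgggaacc
TCF7L2: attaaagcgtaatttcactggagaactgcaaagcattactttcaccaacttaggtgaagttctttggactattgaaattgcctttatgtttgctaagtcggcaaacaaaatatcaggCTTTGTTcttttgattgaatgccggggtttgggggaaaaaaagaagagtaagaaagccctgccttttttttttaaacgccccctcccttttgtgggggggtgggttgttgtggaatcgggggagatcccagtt
LEF1: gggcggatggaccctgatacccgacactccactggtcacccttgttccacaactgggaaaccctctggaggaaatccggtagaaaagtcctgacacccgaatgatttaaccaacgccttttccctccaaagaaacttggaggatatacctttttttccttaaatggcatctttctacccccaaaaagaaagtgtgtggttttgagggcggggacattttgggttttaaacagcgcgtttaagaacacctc
DKK1: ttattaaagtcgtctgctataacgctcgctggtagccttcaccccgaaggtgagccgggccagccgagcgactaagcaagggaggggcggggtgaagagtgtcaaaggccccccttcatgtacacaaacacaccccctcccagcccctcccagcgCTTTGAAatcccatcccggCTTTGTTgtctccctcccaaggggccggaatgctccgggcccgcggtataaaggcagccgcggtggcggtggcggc
DKK1 held CTTTGAA at 95 to 89 and CTTTGTT at 76 to 70 bases before its start. The TCF7L2 window shown held CTTTGTT at 133 to 127 bases before that start. No word lay in the LGR4 and LEF1 windows. The table held 42 such windows for 31 of the 48 genes, and 3 of them (7.14%), those of DKK1, TCF7L2 and TCF7, had a word. Among all 35116 windows 4199 (12.0%) had one. A match is a description of the letters and not a binding site.

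The deposited values are levels after robust multi-array averaging (RMA) on the log2 scale, on which a difference of 1 is 2-fold. Both arrays had nearly the same distribution, with medians of 4.43 (siKMO) and 4.44 (siControl). Each gene is given by the probe set whose mean level on the 2 arrays was highest, and it is called measured if this mean reached 6, a round minimum. This left 8997 of all genes and 29 of the 44 Wnt genes. Of 16 genes of unrelated tissues with a probe set, 15 were under the minimum. Differences are siKMO minus siControl.

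The knockdown target KMO had levels of 2.92, 2.51 and 2.35 over its 3 probe sets in siKMO cells and 2.95, 2.37 and 2.11 in siControl cells, all under the minimum, so the array does not check the knockdown. As markers of the line, VIM, AXL, CAV1, CD44, ZEB1 and MSN were all measured. With their highest probe sets they differed by -0.30 to 0.16. A weaker probe set of VIM differed by 0.64 and a weaker probe set of CD44 by -0.65, both with a mean above the minimum. Of 12 genes that MDA-MB-231 is known to express little or to lack, 5 were under the minimum: ESR1, PGR, CDKN2A, GRHL2 and ESRP1. CDKN2A is deleted in this line. GRHL2 and ESRP1, also epithelial genes, had 2.93 and 3.59 in siKMO cells and the same values in siControl cells with their highest probe sets. The other 7 were measured, among them the epithelial genes CDH1 (8.62 in siKMO cells and 10.54 in siControl cells), EPCAM (siKMO 7.85, siControl 8.75), CLDN4 (siKMO 8.13, siControl 8.67) and CLDN7 (siKMO 7.33, siControl 8.44), against the usual description of the line. All 7 had lower values in siKMO cells, with differences from -1.92 to -0.07. This difference in the measured epithelial genes runs beside every Wnt difference below, and its part in them was not tested. In RNA of a whole culture, fewer cells of an epithelial kind and less of the RNA per cell cannot be told apart.

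The Wnt genes as a whole differed little between the arrays. Of the 29 measured genes 15 were above 0, 12 below and 2 at 0, and their median difference was 0.02, beside 0.04 over all 8997 measured genes. At least 1.5-fold (0.58 on the log2 scale) separated the arrays for 1 Wnt gene, the receptor LGR4, which was lower in siKMO cells, and 0 were that much higher. Over all measured genes 5.41% were lower and 5.19% higher by that fold, 10.6% in either direction. The Wnt genes past 2-fold were 0 in either direction, beside 1.39% lower and 0.856% higher (2.25% together) over all measured genes. At 1.25-fold (0.32), a threshold chosen after the values were seen, 3 Wnt genes were lower (LGR4, FZD7 and TCF7L2) and 4 higher (SOX9, BTRC, ZNRF3 and FZD2), beside 13.7% lower and 18.3% higher over all measured genes. These 7 genes are 24.1% of the 29, beside 31.9% of all measured genes for either direction. The other 22 differed by -0.21 to 0.29.

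**Figure D1:**
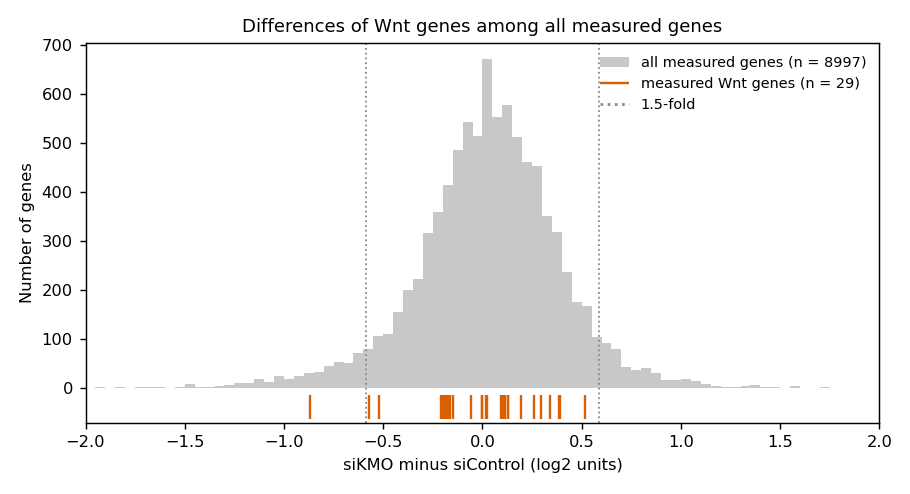
Histogram of the difference siKMO minus siControl (x axis, log2 units) for the 8997 measured genes (y axis, number of genes), with a tick below for each of the 29 measured Wnt genes and dotted lines at 1.5-fold; 9 genes lie outside the drawn range of -2 to 2. The Wnt ticks fall within the body of the distribution, and only LGR4, at -0.87, lies past a dotted line.

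Among the ligands, only WNT5B and WNT7B were measured. WNT5B, a ligand of the branch that does not act through beta-catenin, had 7.02 in siKMO cells and 7.02 in siControl cells, an identical value. WNT7B had 5.93 in siKMO cells and 6.13 in siControl cells, and its other probe set 4.30 in siKMO cells and 4.84 in siControl cells. WNT5A (siKMO 3.99, siControl 4.23) and WNT10B (siKMO 5.22, siControl 5.10) lay under the minimum in both conditions. All 17 further ligands and R-spondins with a probe set, of 18 listed, had a mean under it as well. Of these, WNT10A reached 6.02 in siControl cells (siKMO 5.82). WLS, the carrier that brings Wnt proteins to the cell surface, had 7.62 in siKMO cells and 7.59 in siControl cells with its highest probe set, and differed by 0.08 and -0.66 with the others, the last of which is under the minimum on both arrays.

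The Frizzled receptors did not share a direction. FZD7, which in breast cancer cells is known as a receptor of canonical signalling, had 8.54 in siKMO cells and 9.11 in siControl cells, a 1.48-fold lower level, and 8.25 in siKMO cells and 8.70 in siControl cells with its other probe set. Both probe sets were thus lower, with differences of -0.57 and -0.45, and 5.67% of all measured genes were as low or lower than FZD7. FZD2, linked to signalling by WNT5A, had the opposite sign, with 8.55 in siKMO cells and 8.21 in siControl cells, a 1.27-fold higher level. Its other probe set stood at 7.02 in siKMO cells and 5.996 in siControl cells, a difference of 1.03, so the direction of FZD2 was shared by its probe sets and the size was not.

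Of the other Frizzled genes, FZD4 differed by 0.29 (6.59 in siKMO cells and 6.29 in siControl cells), with 0.61 from a weaker probe set. FZD5 differed by 0.26 (siKMO 7.25, siControl 6.99) but by -0.57 with a probe set under the minimum, FZD6 by 0.13 (siKMO 9.44, siControl 9.32) and FZD1 by -0.19 (siKMO 6.32, siControl 6.51). FZD3 had a mean under the minimum (siKMO 6.18, siControl 5.74), and its 4 probe sets ran from -0.48 to 0.44, 3 of them lower. The coreceptors LRP5 (siKMO 6.70, siControl 6.88) and LRP6 (siKMO 8.60, siControl 8.77) both differed by -0.18. A weaker probe set of LRP5 differed by 0.37, and 2 weaker ones of LRP6 by 0.10 and -0.07. Over the 9 measured receptors, 4 were above 0 and 5 below, with a median of -0.18. The median was -0.02 with a minimum of 5 or 7 and again with _x_at and _s_at probe sets left out, and 0.04 when all probe sets of a gene were averaged, so its direction was not settled.

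LGR4, a receptor for R-spondins, had the largest difference of the 29 measured Wnt genes. Its level was 8.02 in siKMO cells and 8.89 in siControl cells, 1.82-fold lower, and 2.06% of all measured genes were as low or lower. This rests on a single probe set. The other 2 probe sets of LGR4 stood at 3.64 and 2.36 in siKMO cells and at 3.55 and 2.25 in siControl cells, too weak to show a difference. The related receptor LGR5 was under the minimum (siKMO 3.60, siControl 3.72).

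The ligases that LGR receptors hold in check had opposite signs. ZNRF3 had 6.41 in siKMO cells and 6.03 in siControl cells, a 1.31-fold higher level. RNF43 had 5.35 in siKMO cells and 6.04 in siControl cells, but its mean was under the minimum, and with 6 in place of the weaker level the difference is -0.04. Each has 1 probe set, both close to the minimum, so the sizes are poorly set.

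**Figure D2:**
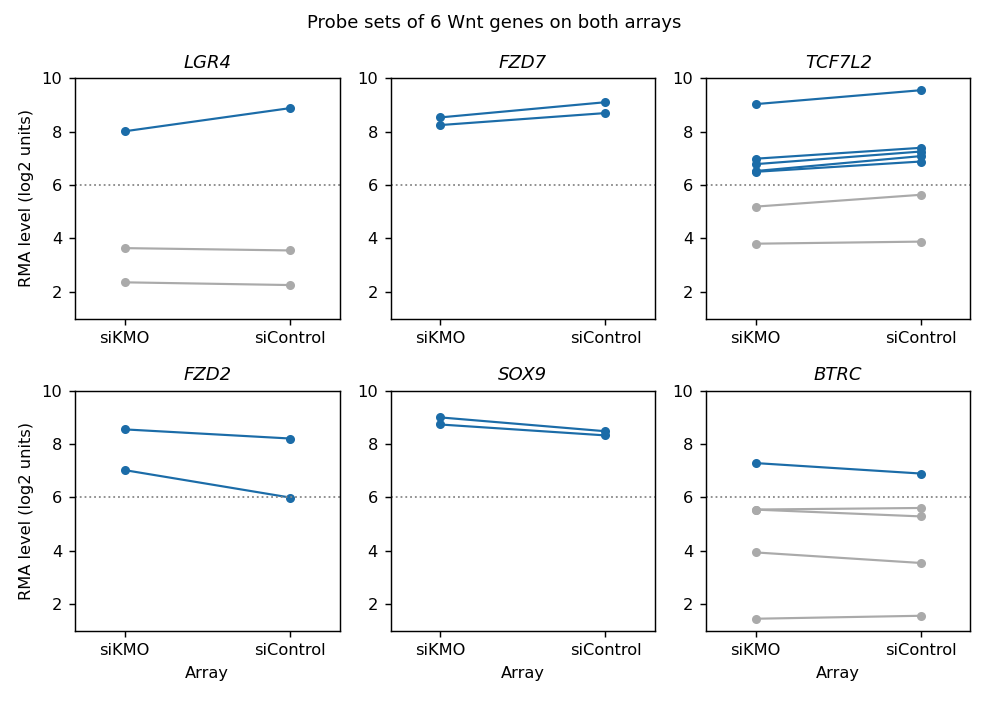
RMA level (y axis, log2 units) of every probe set of LGR4, FZD7, TCF7L2, FZD2, SOX9 and BTRC on the siKMO and the siControl array (x axis); each line joins 1 probe set, blue where its mean is at least 6 and grey where it is under, with a dotted line at 6. All blue lines of FZD7 and TCF7L2 are lower in siKMO, those of FZD2 and SOX9 are higher, and LGR4 and BTRC each have 1 blue line.

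Of the secreted inhibitors only DKK1 was measured. DKK1, which blocks the LRP coreceptors and is a target of beta-catenin, had 12.12 in siKMO cells and 11.99 in siControl cells, a difference of 0.13. DKK3 (siKMO 5.69, siControl 5.47), SFRP1 (siKMO 3.65, siControl 3.75), NOTUM (siKMO 4.99, siControl 4.99), a deacylase that inactivates Wnt proteins, and APCDD1 (siKMO 2.04, siControl 2.04) were under the minimum on both arrays, so 5 of the 7 inhibitors, counting RNF43, were not measured. The other 3 probe sets of SFRP1, also under the minimum, differed by 0.27, 0.27 and 0.42.

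The dishevelled genes, whose products relay the signal from Frizzled, differed by -0.17 (DVL1, 7.62 in siKMO cells and 7.79 in siControl cells), -0.06 (DVL2, siKMO 7.96 and siControl 8.02) and 0.10 (DVL3, siKMO 7.38 and siControl 7.28). NKD1, a feedback inhibitor of dishevelled, was under the minimum with all 3 probe sets (the highest at siKMO 4.27 and siControl 4.40).

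In the destruction complex 7 of 8 genes were measured, with a median difference of 0.02, and 0 reached 1.5-fold. The median was -0.12 with _x_at and _s_at probe sets left out and -0.04 when all probe sets of a gene were averaged, so its sign turns with the setting. CTNNB1, beta-catenin itself, had 11.02, 8.76 and 6.77 over its 3 probe sets in siKMO cells and 10.93, 8.77 and 6.88 in siControl cells. Its differences were thus between -0.11 and 0.09, with no common sign. The scaffold APC differed by 0.19 (siKMO 7.17, siControl 6.97), and 4 of its 5 probe sets were higher and 1 was at 0, although only the probe set of these values was above the minimum. The scaffold AXIN1 had 6.32 in siKMO cells and 6.53 in siControl cells, a difference of -0.21 from its only probe set.

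The kinases of the complex were close to level. GSK3B had the same value on both arrays with its highest probe set (7.81). Of its 5 probe sets 2 were higher, 0 lower and the others identical, with differences from 0 to 0.07. GSK3A differed by -0.15 (siKMO 6.08, siControl 6.23), and by 0.09 with a probe set just under the minimum. CSNK1A1, casein kinase 1 alpha, had 13 probe sets, 5 higher, 7 lower and the other level, from -0.31 to 0.39, and the highest of them stood at 10.94 in siKMO cells and 10.92 in siControl cells. BTRC, the ubiquitin ligase subunit that recognises phosphorylated beta-catenin, had the highest difference of the complex, with 7.29 in siKMO cells and 6.90 in siControl cells, 1.31-fold higher. Its other 4 probe sets were under the minimum and ran from -0.11 to 0.40, and 13.0% of all measured genes were as high or higher than BTRC.

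TCF7L2 was lower with every probe set. This factor, also called TCF4, is the main DNA-binding partner of beta-catenin in many epithelia. Its 5 probe sets above the minimum stood at 9.04, 6.99, 6.79, 6.53 and 6.50 in siKMO cells and at 9.56, 7.40, 7.26, 7.09 and 6.88 in siControl cells. All 7 of its probe sets were lower in siKMO cells, with differences from -0.56 to -0.08, and the highest probe set differed by -0.52, a 1.44-fold lower level. Of all measured genes 6.59% were as low or lower.

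The other nuclear factors were weak or level. LEF1 had 5.73, 4.46 and 2.85 over its probe sets in siKMO cells and 5.13, 4.28 and 2.64 in siControl cells. All 3 were higher in siKMO cells, by 0.60, 0.18 and 0.21, but every one of these levels is under the minimum, so no fold is given. TCF7L1 was under it too (siKMO 5.45, siControl 5.68). Of the coactivators that link beta-catenin to transcription, BCL9 differed by 0.11 (siKMO 6.33, siControl 6.21), and PYGO2 was just under the minimum (siKMO 5.88, siControl 5.83).

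**Figure D3:**
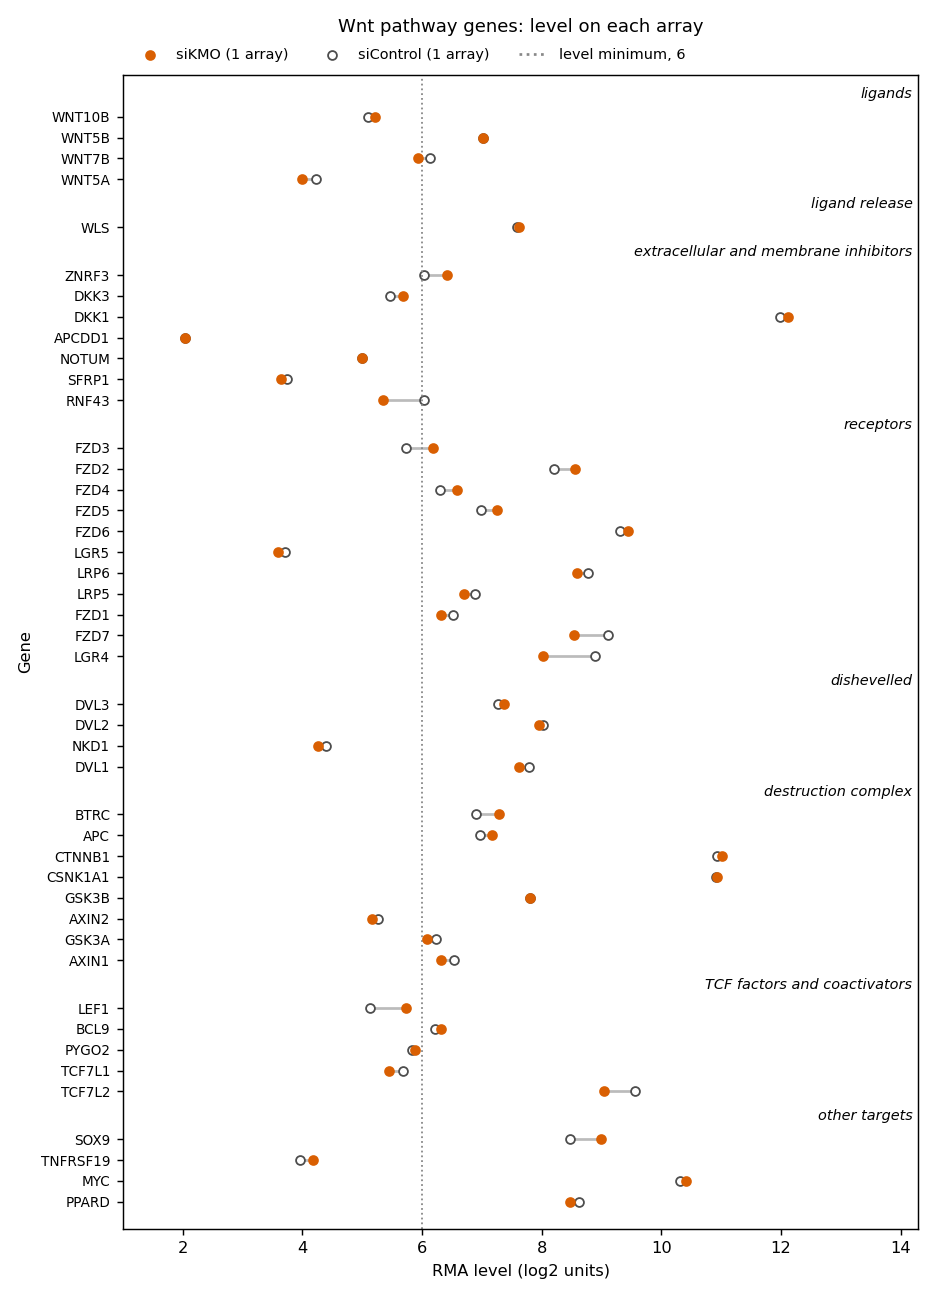
RMA level (x axis, log2 units) of 44 Wnt genes (y axis), grouped by role, on the siKMO array (filled) and the siControl array (open), with a dotted line at the level minimum of 6. Most pairs of points nearly coincide, and the longest gap to the right of the line is that of LGR4.

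The list of 14 targets and feedback genes, which overlaps the roles above, had 5 measured members, 4 above 0 and 1 below, with a median of 0.13, and 0 of them differed by 1.5-fold. The median was 0.26 when all probe sets of a gene were averaged and 0 with no minimum level. SOX9, a transcription factor of progenitor cells, was the highest, with 9.0 and 8.73 over its probe sets in siKMO cells and 8.48 and 8.33 in siControl cells, differences of 0.52 and 0.41. Both probe sets were higher, the first 1.43-fold, and 7.15% of all measured genes were as high or higher. MYC, a growth-promoting factor, had 10.42 in siKMO cells and 10.31 in siControl cells.

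PPARD, a nuclear receptor for fatty acids, differed by -0.16 (siKMO 8.47, siControl 8.63) with its highest probe set, while a probe set under the minimum gave 0.84 (siKMO 5.71, siControl 4.88). AXIN2, often used as a readout of beta-catenin activity, had 4 probe sets, the highest at 5.17 in siKMO cells and 5.26 in siControl cells. They ran from -0.21 to 0.26 and all were under the minimum, as were TNFRSF19 (siKMO 4.18, siControl 3.97), LGR5, NKD1, NOTUM, APCDD1, LEF1 and RNF43. Of the 13 targets with a probe set, 8 thus had no measured level.

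Agreement between probe sets could be examined for 8 Wnt genes with at least 2 probe sets above the minimum. FZD2, SOX9 and WLS were higher with all of these, FZD7 and TCF7L2 were lower with all, and CTNNB1, CSNK1A1 and DVL2 had mixed signs. All such probe sets differed by at least 1.25-fold in 2 genes that were higher (FZD2 and SOX9) and 2 that were lower (FZD7 and TCF7L2), beside 9.69% higher and 7.86% lower of the 3777 genes of this kind. That threshold was chosen after the values were seen, so the counts are a description only. Probe sets of a gene share the culture and are no replicates of it.

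**Figure D4:**
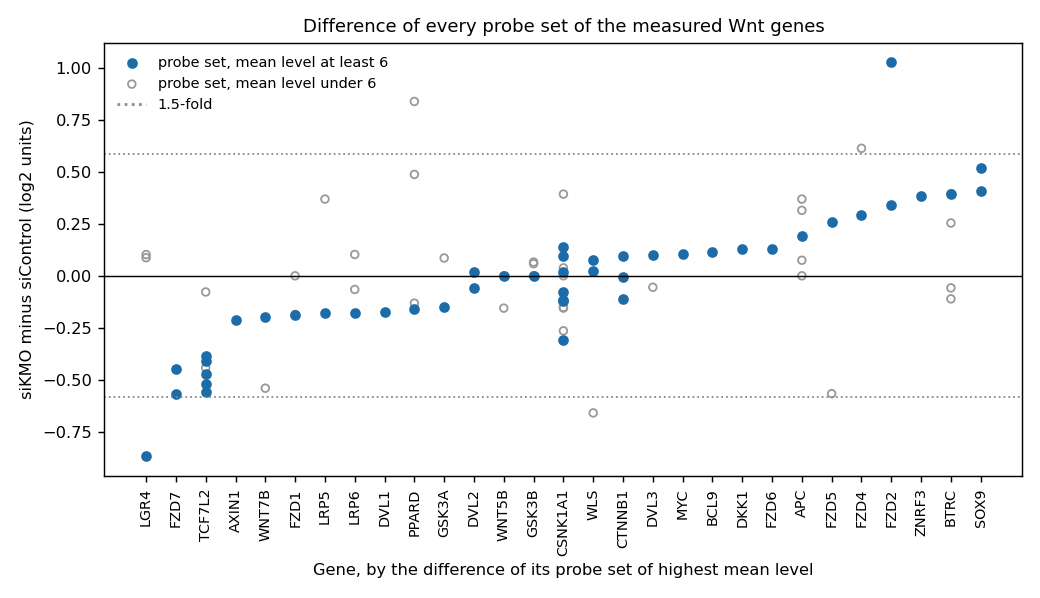
Difference siKMO minus siControl (y axis, log2 units) of every probe set of the 29 measured Wnt genes (x axis, ordered by the probe set of highest mean level), filled where the mean level is at least 6 and open where it is under, with dotted lines at 1.5-fold. The filled points of TCF7L2 lie together between -0.56 and -0.39, whereas those of CSNK1A1 straddle 0.

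A wider list of 82 further Wnt genes had 80 with a probe set and 36 measured. Their median difference was 0.06, with 19 above 0, 14 below and 3 at 0, and 1 was higher and 2 lower by at least 1.5-fold, beside the 10.6% of all measured genes. TNKS2, a tankyrase that marks axin for degradation, had 7.88 in siKMO cells and 7.24 in siControl cells, a difference of 0.64, but 0.07 with its other probe set above the minimum. PTK7, a coreceptor of planar cell polarity, had 5.95 in siKMO cells and 6.55 in siControl cells, a difference of -0.60, or -0.55 with the weaker level taken as 6, which is short of 1.5-fold. Its other probe set, under the minimum, differed by 0.39. CSNK1D, a casein kinase 1, had 7.97 in siKMO cells and 8.55 in siControl cells, a difference of -0.59, and 0.01 with another probe set.

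CTNNBIP1, which keeps beta-catenin from binding TCF factors, had 7.03 in siKMO cells and 7.55 in siControl cells with its only probe set. VANGL1, a membrane protein of planar cell polarity, had 8.17, 8.20, 7.36 and 6.02 over its probe sets in siKMO cells and 7.76, 7.71, 6.69 and 5.47 in siControl cells. All 4 probe sets were higher, by 0.41 to 0.67, but the weakest had a mean under the minimum and a bounded difference of 0.02. CREBBP, a histone acetyltransferase that beta-catenin recruits, differed by 0.38, the ligase scaffold CUL1 by 0.37 and TBL1XR1, a corepressor subunit, by -0.38 (-0.72 to 0.22 over its probe sets).

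Cadherins, which can bind beta-catenin at the membrane, were listed together with other catenins. Of 6 measured, 4 were lower by at least 1.5-fold, beside 5.41% of all measured genes, and 2 of these by at least 2-fold, beside 1.39%. Their median difference was -0.84, beside 0.04 over all measured genes. The list was chosen with earlier results of these data known. CDH1, E-cadherin, differed by -1.92 and, with a weaker probe set (5.06 in siKMO cells and 6.95 in siControl cells), by -0.95 when the weaker level is taken as 6. CDH3, P-cadherin, had 6.39 in siKMO cells and 7.996 in siControl cells, a 3.05-fold lower level. CDH11, a mesenchymal cadherin, was lower with all 4 probe sets, with differences from -1.34 to -0.79. The weakest of them had a mean under the minimum and differed by -0.03 with its weaker level taken as 6.

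JUP, plakoglobin, a close relative of beta-catenin, had 7.02 in siKMO cells and 7.75 in siControl cells, 1.66-fold lower. CTNNA1, alpha-catenin, was lower with all 5 probe sets, with differences from -0.31 to -0.15, the first from a probe set under the minimum. CTNNAL1 differed by 0.02. CDH2, N-cadherin, was under the minimum. All of these values are of RNA. How much beta-catenin protein the cells held, and where, was outside the assay.

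**Figure D5:**
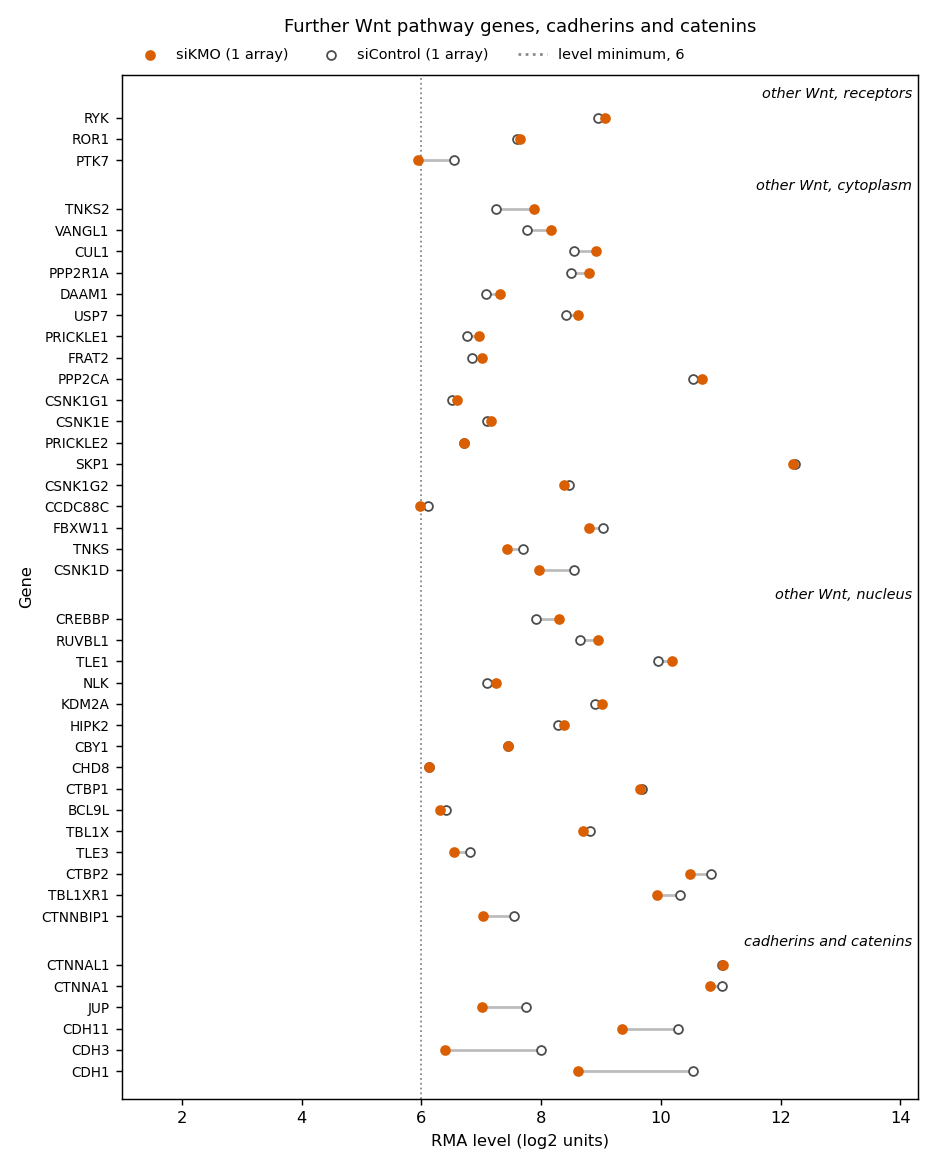
RMA level (x axis, log2 units) of the 36 measured further Wnt genes and the 6 measured cadherins and catenins (y axis) on the siKMO array (filled) and the siControl array (open), with a dotted line at 6. The widest gaps are those of CDH1, CDH3 and CDH11, all lower in siKMO.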

How the data were processed

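RNA of 1 siKMO and 1 siControl culture of MDA-MB-231 cells was measured on 2 arrays. The authors deposited log2 levels made by RMA, per the labels' design text, with Affymetrix Expression Console, per the submitters' processing notes. Its version, and which arrays were normalized as a set, is not given in the sources used here. RMA gives neither a detection call nor a true zero, differences of weak probe sets are compressed, and a shift common to all transcripts cannot be seen.

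Probe sets were named through the platform annotation, with symbols updated by gene identifier to RefSeq GRCh38.p14. Of the probe sets 41097 had 1 gene (41043 matched by identifier), 1801 had several and 11777 had none listed. Levels under 6 were taken as 6 where a bound is given. The roles and gene lists were chosen with earlier results of these data known. Any Wnt gene of the 48 could be named, and up to 8 genes of the other lists by absolute difference. Counts past a fold replaced tests, and the calculation was tested on simulated data. Python 3.11.15 with pandas 2.3.3 was used. Arrays give no counts, and their number limits the precision.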

Additional observations from a re-analysis of the deposited data

How the results depend on the processing

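Alternatives were run for the minimum level (5, 7 or none), the summary of probe sets, probe sets ending in _x_at or _s_at, weak levels taken as 6, and centring on the median of all measured genes. The count of Wnt genes at least 1.5-fold higher, 0 as reported, was 1 with a minimum of 5 and with none (LEF1), and 1 when all probe sets were averaged or only those past the minimum were (FZD2). The count at least 1.5-fold lower, 1 as reported, was 2 with a minimum of 5 and with none (LGR4 and RNF43), 2 after centring (LGR4 and FZD7), 0 when all probe sets were averaged and 0 without _x_at and _s_at probe sets. In this last setting LGR4 is left with a probe set near 2.3 and differs by 0.10 instead of -0.87, since its only strong probe set is removed. The median of the measured Wnt genes ran from -0.06 to 0.02 over the alternatives. Of 29 genes, 7 took the other sign under at least 1 alternative (LGR4, WLS, FZD5, LRP5, CTNNB1, CSNK1A1 and PPARD) and 22 did not, 2 of which were at 0 (WNT5B and GSK3B). Among the 22 were FZD7 (-0.61 to -0.51), TCF7L2 (-0.56 to -0.41), SOX9 (0.46 to 0.52) and FZD2 (0.30 to 0.68). Over the alternatives the median lay between -0.22 and 0.04 for the receptors, between -0.12 and 0.09 for the destruction complex and between 0 and 0.26 for the targets. FZD7, SOX9, MYC and WNT5B gave no value without _x_at and _s_at probe sets. No paired analysis was possible because each condition has 1 array. Signal over background limits the 15 Wnt genes under the minimum.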

Other observations

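Some genes of the wider list with a mean under the minimum are given here as values, chosen after these were seen. WNT2B, a ligand, had 3.42 in siKMO cells and 4.65 in siControl cells, both under 6, so no fold is given. Its other 3 probe sets, all under 6, differed by -0.27, 0.13 and 0.17. PYGO1, a coactivator of beta-catenin, had 6.21 in siKMO cells and 5.23 in siControl cells, and 4.92 in siKMO cells and 3.82 in siControl cells with a second probe set, but its mean was under the minimum and with 6 in place of the weaker level the difference is 0.21. KREMEN1 and KREMEN2, receptors for DKK1, had 5.50 and 5.73 in siKMO cells and 6.10 and 6.16 in siControl cells, and bounded differences of -0.10 and -0.16. VANGL2 had 3.71 in siKMO cells and 4.43 in siControl cells.

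Some values were identical on both arrays to the last deposited digit. This held for 14 of the 123 Wnt probe sets (11.4%), beside 9.46% of all 54675. At a mean of at least 6 it held for 2 of 46 Wnt probe sets (4.35%), those of WNT5B and GSK3B, beside 1.1% of the 16836 probe sets at that level. Identical values were thus rarer at this level than over all probe sets. A difference of exactly 0 in these genes is not a finer measurement.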
